A study of Mus musculus with 21 samples.

Results

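The immediate early and AP-1 genes described here were Fos, Fosb, Fosl2, Jun, Junb, Jund, Egr1, Atf3, Ier2 and Nr4a1. They were taken by gene symbol from the deposited expression tables, where each symbol matched 1 row, so that the set made up 10 of 27968 genes in the table of sorted cells and 10 of 22899 genes in the table of cocultures. RNA-seq was performed on 21 libraries from 7 groups of mouse cells, 3 replicates in each group. Mouse embryonic stem cells (mESC, labelled as 129/ola background, sorted with an antibody to SSEA-1) were the starting cells. Hematopoietic-like colonies induced from such cells in a 3D self-assembling peptide were then placed on OP9 (3D+OP9) or on gelatin at 0.1% without stroma (3D+0.1%gel). OP9 is a mouse bone marrow stromal line and had been treated with mitomycin C. By the methods, the medium of the OP9 coculture held stem cell factor, IL-3 and Flt3 ligand. The total cells of both cultures were sequenced on day 5. D5-LSKCD201+ and D5-LSKCD201- cells were sorted on day 5 of the OP9 coculture as lineage-negative Sca-1+ c-Kit+ (LSK) cells with or without CD201, the endothelial protein C receptor. BM-LSKCD201+ cells came from bone marrow of adult C57BL/6 mice and FL-LSKCD201+ cells from mid-gestation fetal liver of C57BL/6 mice, so by the labels strain and tissue source cannot be told apart in any comparison of these groups with the 129/ola groups. The methods name stem cells of both 129/ola and C57BL/6 origin without saying which gave these libraries. No drug treatment or engineered allele was labelled in any group.

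AP-1 is a dimeric transcription factor built from a Jun protein with a Fos protein, an ATF protein or a second Jun protein. Most of the genes are transcribed within minutes of a growth factor, cytokine or stress signal, without new protein synthesis, and their mRNAs are short lived. In blood stem and progenitor cells Junb, Jund, Egr1 and Nr4a1 are known as brakes on proliferation, and the same genes are also known to respond to tissue dissociation and cell sorting. Levels are given in FPKM, mapped fragments scaled by the size of the library and the length of the transcript, and differences are on log2(FPKM + 1), a scale that understates the change of low genes. A gene was called when the Benjamini-Hochberg adjusted p of limma over all genes tested was under 0.05 and the absolute log2 difference was at least 1.

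By the smallest steps of the deposited values, the sorted-cell libraries held an estimated 16400000 to 25100000 fragments, whereas no depth could be recovered for the cocultures, whose values were rounded to 2 decimals. Replicate 2 of D5-LSKCD201- stood apart from replicates 1 and 3 in its group, with squared differences 8.26 and 10.5 times counting noise where replicates 1 and 3 differed by 2.21 times. Replicates 2 and 3 of BM-LSKCD201+ lay close together at 1.54 times counting noise, and those of FL-LSKCD201+ at 1.72 times, where replicate 1 of each group differed from them by 16.6 to 22.6 times. Whether those close replicates share a preparation is not given in the sources used here, and averaging them changed no call of the 10 genes in the comparisons of marrow and fetal liver. All pairs of mESC replicates were also close, at 2.01 to 2.6 times counting noise, as were those of D5-LSKCD201+ at 2.04 to 2.76 times. How far these were separate cultures was not tested. The labelled cell types were checked on their markers. Procr, which encodes CD201, was at 57.9 to 61.9 FPKM in D5-LSKCD201+ and at 3.02 to 3.82 FPKM in D5-LSKCD201-. Ptprc, which encodes the leukocyte antigen CD45, was at 64.3 to 71.6 FPKM in BM-LSKCD201+ and 38.4 to 52.1 FPKM in FL-LSKCD201+ but at most 0.935 FPKM in the D5 groups. Itga2b, which encodes CD41, an early hematopoietic and megakaryocyte marker, was highest in D5-LSKCD201+ at 44.4 to 45.6 FPKM, against 3.51 to 3.92 FPKM in D5-LSKCD201-, 11.3 to 11.8 FPKM in BM-LSKCD201+ and 8.30 to 8.74 FPKM in FL-LSKCD201+. The other hematopoietic markers, Spn and Gfi1b, were higher in both tissues than in either D5 group, as was Ptprc. The 5 endothelial markers summed to 664 to 689 FPKM in D5-LSKCD201+ and to at most 72.6 FPKM in the other sorted groups, and the 4 pluripotent markers still summed to 616 to 667 FPKM in D5-LSKCD201-, against 5.61 to 5.83 FPKM in D5-LSKCD201+. In such bulk RNA, fewer cells of a type and less RNA per cell cannot be told apart.

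Promoter sequences from RefSeq (GRCm38.p6) were present for 8 of the 10 genes. The 250 bases before the start site are shown for the 5 genes whose window held the core of a cAMP response element, to show where that sequence lies. The windows are at chr12:85473640-85473889 (+) for Fos, chr15:101266596-101266845 (+) for Nr4a1, chr8:84978749-84978998 (-) for Junb, chr7:19310046-19310295 (-) for Fosb and chr1:191183334-191183583 (-) for Atf3, each written 5′ to 3′ on the strand of its gene with every TGACG or its reverse complement in capitals.
Fos: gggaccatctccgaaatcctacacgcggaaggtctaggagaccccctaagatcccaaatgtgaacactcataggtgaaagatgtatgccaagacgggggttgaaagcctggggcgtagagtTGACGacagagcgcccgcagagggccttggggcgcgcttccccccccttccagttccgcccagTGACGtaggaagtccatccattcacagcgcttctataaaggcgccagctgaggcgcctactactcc
Nr4a1: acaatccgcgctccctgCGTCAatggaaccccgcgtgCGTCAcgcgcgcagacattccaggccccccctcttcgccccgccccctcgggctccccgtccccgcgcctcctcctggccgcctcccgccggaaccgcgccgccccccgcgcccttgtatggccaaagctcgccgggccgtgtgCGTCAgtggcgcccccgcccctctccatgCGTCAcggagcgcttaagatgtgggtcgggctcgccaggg
Junb: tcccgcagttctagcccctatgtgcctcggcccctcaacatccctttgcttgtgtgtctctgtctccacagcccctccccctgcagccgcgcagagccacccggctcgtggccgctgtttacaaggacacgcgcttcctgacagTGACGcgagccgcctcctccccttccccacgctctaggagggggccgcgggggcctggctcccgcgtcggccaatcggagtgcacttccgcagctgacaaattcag
Fosb: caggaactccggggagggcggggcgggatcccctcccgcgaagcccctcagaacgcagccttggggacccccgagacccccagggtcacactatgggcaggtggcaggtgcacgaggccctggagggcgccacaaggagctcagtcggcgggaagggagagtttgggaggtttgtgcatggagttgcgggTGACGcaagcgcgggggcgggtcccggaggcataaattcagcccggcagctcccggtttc
Atf3: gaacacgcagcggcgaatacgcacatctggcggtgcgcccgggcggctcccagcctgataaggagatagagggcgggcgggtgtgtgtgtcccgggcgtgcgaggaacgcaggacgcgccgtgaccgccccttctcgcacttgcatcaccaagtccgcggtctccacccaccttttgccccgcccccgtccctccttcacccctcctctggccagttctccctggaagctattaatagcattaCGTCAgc
The core was found 4 times in the window of Nr4a1, at 233, 213, 69 and 40 bases before the start, and 2 times in that of Fos, at 129 and 66 bases. Junb (106 bases), Fosb (60 bases) and Atf3 (7 bases) held it once each. On both strands, TGACG was present in 17.8% of all 32851 promoter windows of this length. The full element TGACGTCA, within which the core lies, was in 1.55% of all windows and the AP-1 site TGANTCA in 6.75%, and neither was in a window of the 8 genes. Only exact matches to these letters were searched, so variants of either site may be present. The windows lie before the RefSeq start, which for Atf3, Fosl2 and Nr4a1 is well inside the GENCODE gene and for Jund well before it, so other start sites of these genes were not searched. The EGR site GCGNGGGCG was in the windows of Fosb, Fosl2 and Nr4a1 and in 4.7% of all windows, and the TATA box TATAAA was in that of Fos and in 12.4% of all windows. These matches describe letters in the windows and not binding.

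The 10 genes lie on 8 chromosomes, with Junb, Jund and Ier2 on the same one. On GRCm38 (GENCODE M21), Fos lies at chr12:85473890-85477273, Fosb at chr7:19302696-19310051, Fosl2 at chr5:32135801-32157842, Jun at chr4:95049034-95052222, Junb at chr8:84974484-84978718 and Jund at chr8:70698949-70700616. Egr1 lies at chr18:34859823-34864984, Atf3 at chr1:191170296-191218039, Ier2 at chr8:84661331-84662852 and Nr4a1 at chr15:101254269-101274795. The longest transcripts of Jun, Junb, Jund and Ier2 have 1 exon and those of the other 6 genes have 2 to 8. Transcript GC content ran from 51.9% for Fos and 52.2% for Atf3 to 60.9% for Ier2, 62.6% for Junb and 67.1% for Jund. In the table of sorted cells the locus given for Jun extends beyond the annotated gene, and whether its value takes in a neighbouring transcript was not tested.

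By group means, the bone marrow cells carried the highest level of 9 of the 10 genes among the 5 sorted groups, and the stem cells the lowest level of 8. The exception at the top was Atf3, which was highest in D5-LSKCD201+, and the exceptions at the bottom were Jund and Ier2, which were lowest in D5-LSKCD201+. Against D5-LSKCD201+, 9 of the 10 genes were called higher in BM-LSKCD201+ and 1, Atf3, lower, where 27.2% of the 13775 genes tested were called higher and 17.5% lower. Against FL-LSKCD201+, 7 were called higher in BM-LSKCD201+ and none lower (11.3% and 7.78% of 13503 genes). FL-LSKCD201+ differed less from D5-LSKCD201+, with 3 genes called higher and 1 lower (19.6% and 15.1% of 13627 genes). The median log2 difference of the 10 genes was 3.08 between BM-LSKCD201+ and D5-LSKCD201+, 2.10 between BM-LSKCD201+ and FL-LSKCD201+ and 0.68 between FL-LSKCD201+ and D5-LSKCD201+, where the medians over all genes tested were 0.23, 0.13 and 0.16. These comparisons share groups, so their counts are not independent of each other.

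**Figure D1:**
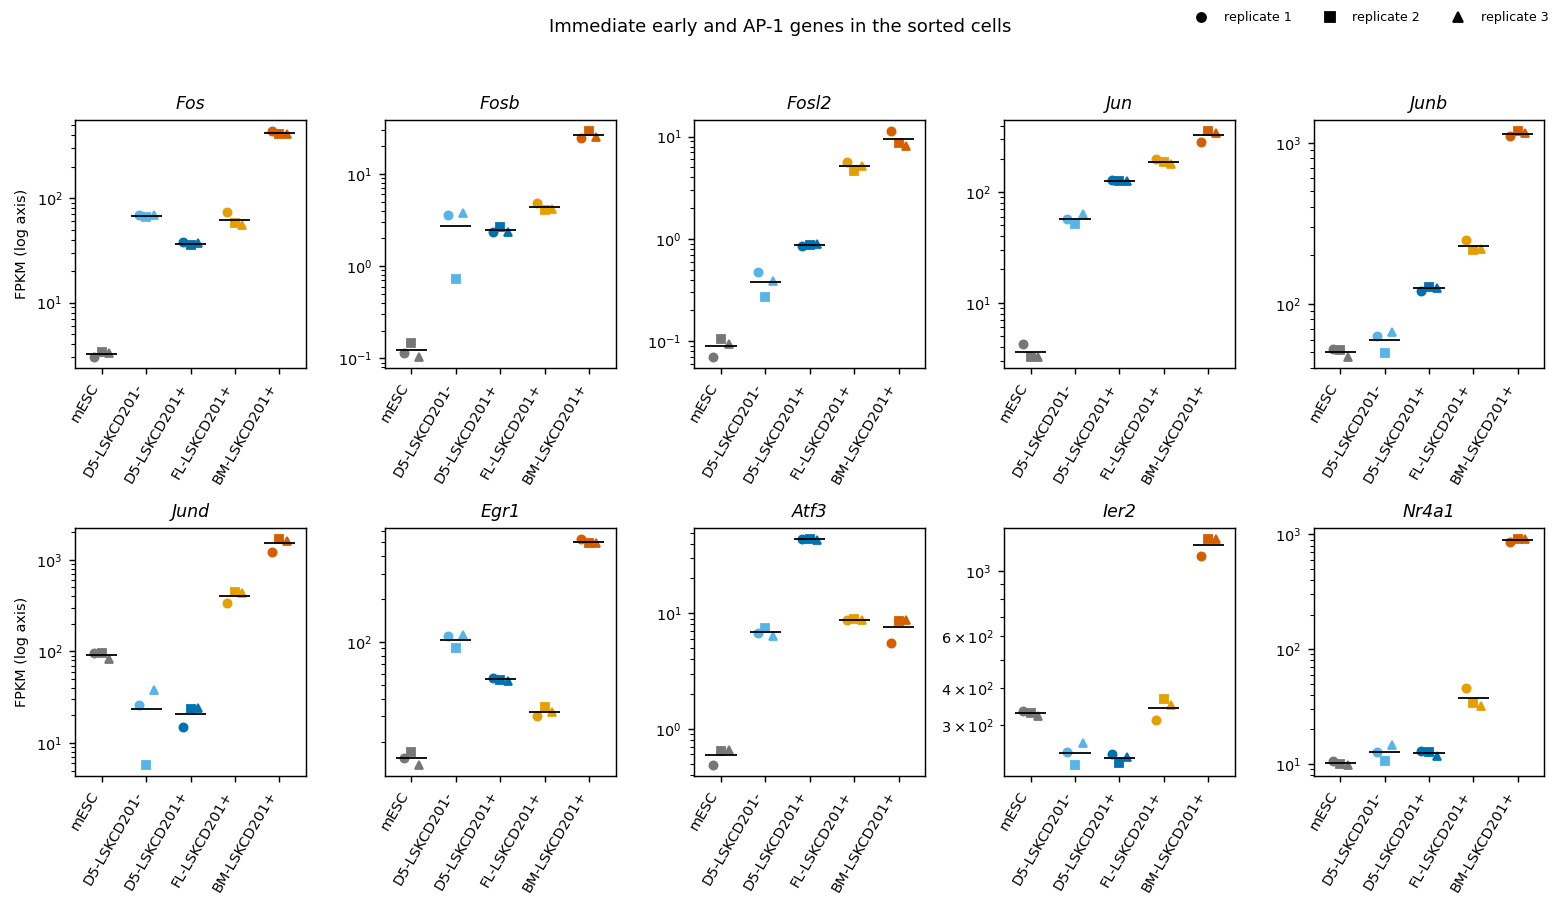
FPKM of the 10 genes (log axis, one panel per gene) in the 5 sorted groups, with one symbol per replicate and a line at the group mean. The 3 BM-LSKCD201+ libraries lie above every other library for all genes but Atf3, and replicate 2 of D5-LSKCD201- lies far below replicates 1 and 3 for Jund and Fosb.

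Fos, the founding member of its family and an obligate partner of Jun proteins, was at 436, 411 and 416 FPKM in BM-LSKCD201+ and at 73.4, 57.3 and 55.2 FPKM in FL-LSKCD201+. D5-LSKCD201- libraries held 68.7, 66.7 and 68.6 FPKM, D5-LSKCD201+ libraries 38.1, 35.2 and 37.1 FPKM, and mESC libraries 3.00, 3.37 and 3.32 FPKM. The marrow libraries were thus highest and the stem cell libraries lowest without overlap, and D5-LSKCD201- overlapped FL-LSKCD201+. Fos was 11.4-fold higher by group means in BM-LSKCD201+ than in D5-LSKCD201+ (log2 difference 3.48, SE 0.05, adjusted p = 2.6e-09) and 6.80-fold higher than in FL-LSKCD201+ (2.76, SE 0.12, adjusted p = 5.5e-06). Between the D5 fractions it went the other way, with a log2 difference of -0.87 for D5-LSKCD201+ against D5-LSKCD201- (SE 0.05, adjusted p = 8.1e-06), which was below the fold threshold.

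Fosb, a close homologue of Fos, was found at lower levels than Fos in all 15 sorted-cell libraries. It was at 24.7, 28.9 and 25.3 FPKM in BM-LSKCD201+, at 4.81, 4.06 and 4.16 FPKM in FL-LSKCD201+, at 2.35, 2.65 and 2.33 FPKM in D5-LSKCD201+ and at 0.114, 0.148 and 0.103 FPKM in mESC. In D5-LSKCD201- the replicates held 3.58, 0.728 and 3.76 FPKM, so that replicate 2 lay below all D5-LSKCD201+ libraries and the other replicates above them. The log2 difference between D5-LSKCD201+ and D5-LSKCD201- was 0.037 (95% interval -0.85 to 0.92) with all libraries and -0.44 (adjusted p = 0.0024) without D5-LSKCD201- replicate 2. Against D5-LSKCD201+ the marrow cells were 2.99 higher on the log2 scale (SE 0.09, adjusted p = 5.1e-08).

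Fosl2, the Fra-2 subunit, was the lowest of the 3 Fos family members described here in the marrow cells, at 11.3, 8.70 and 8.17 FPKM, and was at 5.67, 4.66 and 5.14 FPKM in FL-LSKCD201+. In D5-LSKCD201+ it was at 0.851, 0.870 and 0.894 FPKM, in D5-LSKCD201- at 0.476, 0.270 and 0.392 FPKM and in mESC at most 0.104 FPKM, so that the 5 groups did not overlap. Both primary tissues were called higher than D5-LSKCD201+, fetal liver by 1.71 (SE 0.09, adjusted p = 4.4e-06) and marrow by 2.46 (SE 0.12, adjusted p = 8.6e-07). Against mESC it was not tested, because its mean was under 0.5 FPKM.

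Jun separated the groups in a single order. It was at 285, 354 and 339.6 FPKM in BM-LSKCD201+, at 200.4, 186 and 178 FPKM in FL-LSKCD201+, at 128, 125 and 125 FPKM in D5-LSKCD201+, at 57.4, 51.3 and 64.1 FPKM in D5-LSKCD201- and at 4.24, 3.27 and 3.22 FPKM in mESC. No library overlapped a neighbouring group. Jun, the c-Jun subunit that promotes cell cycle entry in many cells, had the smallest difference of the 9 genes that were higher in marrow than in D5-LSKCD201+, at 1.36 (SE 0.08, adjusted p = 2.5e-06). Against FL-LSKCD201+ the difference was 0.79 (SE 0.12, adjusted p = 0.001), below the fold threshold, and that of Fosl2 was 0.74.

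Junb, a Jun protein that restrains hematopoietic stem cell expansion, was at 1094, 1177 and 1144 FPKM in BM-LSKCD201+, at 248, 215 and 219 FPKM in FL-LSKCD201+ and at 119.7, 128 and 126 FPKM in D5-LSKCD201+. D5-LSKCD201- libraries held 63.3, 49.4 and 67.2 FPKM and overlapped mESC, at 52.7, 51.9 and 46.6 FPKM. The marrow cells were higher than D5-LSKCD201+ by 3.18 (SE 0.05, adjusted p = 3.8e-09) and higher than FL-LSKCD201+ by 2.32 (SE 0.11, adjusted p = 6.5e-06).

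Jund, usually the most steadily transcribed Jun gene, was the Jun family gene with the highest level in marrow. It was at 1227, 1694 and 1604 FPKM in BM-LSKCD201+, at 342, 449 and 431 FPKM in FL-LSKCD201+ and at 95.96, 97.05 and 82.1 FPKM in mESC. D5-LSKCD201+ libraries held 15.1, 23.6 and 23.9 FPKM and D5-LSKCD201- libraries 25.9, 5.78 and 38.2 FPKM. Both D5 fractions were therefore below the stem cells they derived from, and without overlap. Jund was 72.4-fold higher in BM-LSKCD201+ than in D5-LSKCD201+ (log2 difference 6.13, SE 0.19, adjusted p = 8.2e-08), and 19.5-fold higher in FL-LSKCD201+ (4.24, SE 0.20, adjusted p = 2.2e-06). The 68 genes with a transcript GC content above 65% and up to 70%, Jund among them, had a median difference of 0.04 between BM-LSKCD201+ and D5-LSKCD201+ and of 0.16 between FL-LSKCD201+ and D5-LSKCD201+.

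In D5-LSKCD201- replicate 2 the same GC class had a median log2 difference of -0.35 from the mean of replicates 1 and 3. There Jund stood at -2.26, rank 20 from the lowest of 14457 genes, and Fosb at -1.43, rank 167. The other 8 genes lay between -0.39 and 0.18. Without that replicate, the Jund difference between D5-LSKCD201+ and D5-LSKCD201- changed from 0.15 (95% interval -1.29 to 1.59) to -0.60 (adjusted p = 0.042).

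The summed FPKM of the 6 Fos and Jun transcripts was lowest in mESC and highest in marrow, with no overlap between the 5 groups, but the make-up of that sum followed another order. The sum was 135 to 156 FPKM in mESC, 174 to 242 FPKM in D5-LSKCD201-, 305 to 316 FPKM in D5-LSKCD201+, 874 to 916 FPKM in FL-LSKCD201+ and 3079 to 3674 FPKM in BM-LSKCD201+. Jund made up 61.5% ± 0.84 (SD, n = 3) of it in mESC, 45.5% ± 5.54 in FL-LSKCD201+ and 43.8% ± 3.41 in BM-LSKCD201+, but 6.67% ± 1.48 in D5-LSKCD201+ and 10.3% ± 6.36 in D5-LSKCD201-. In D5-LSKCD201+ Jun (40.5% ± 1.45) and Junb (39.97% ± 0.64) shared most of the sum. D5-LSKCD201- carried the largest Fos share of the sorted groups, 32.6% ± 5.10, against 11.8% ± 0.68 in D5-LSKCD201+, 12.4% ± 1.58 in BM-LSKCD201+, 6.95% ± 1.26 in FL-LSKCD201+ and 2.18% ± 0.27 in mESC. The shares describe transcripts and were not tested.

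**Figure D2:**
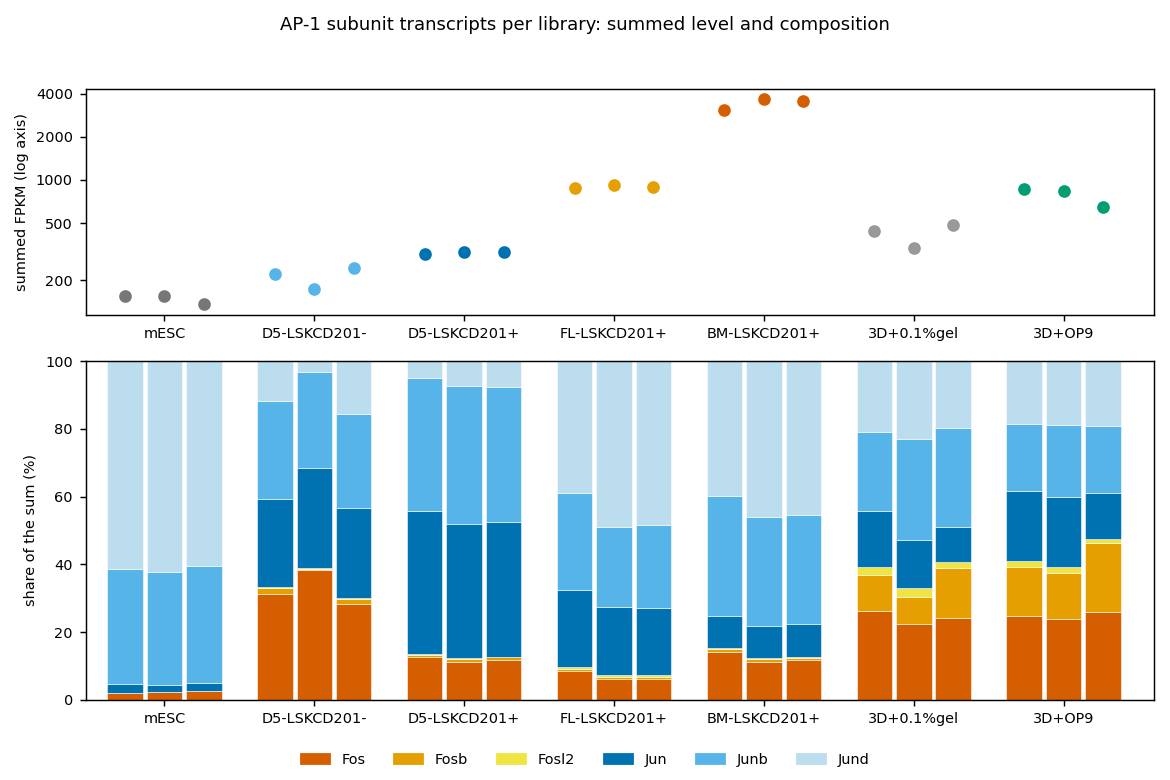
Upper panel, summed FPKM of Fos, Fosb, Fosl2, Jun, Junb and Jund in each library (log axis). Lower panel, the share of each transcript in that sum in percent, one bar per replicate in the order 1 to 3. Jund takes 61.5% of the sum on average in mESC and at most 15.8% in any D5-LSKCD201+ or D5-LSKCD201- library. The cocultures, on the right, come from a table that was normalized separately.

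Egr1, a zinc finger factor of early response that keeps hematopoietic stem cells quiescent in the marrow, was at 528, 494 and 495 FPKM in BM-LSKCD201+ and at 30.2, 34.8 and 32.3 FPKM in FL-LSKCD201+. The D5 fractions lay between these tissues, D5-LSKCD201- at 110.2, 90.2 and 111 FPKM and D5-LSKCD201+ at 56.2, 54.1 and 53.5 FPKM, and mESC libraries held 15.3, 16.9 and 13.8 FPKM. It was the only gene besides Atf3 that was lower in fetal liver than in D5-LSKCD201+, with a difference of -0.74 (SE 0.08, adjusted p = 0.00012) below the fold threshold. Marrow exceeded fetal liver 15.6-fold (log2 difference 3.92, SE 0.09, adjusted p = 6.1e-07) and D5-LSKCD201+ 9.26-fold (3.19, SE 0.05, adjusted p = 3.1e-09).

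Nr4a1, which encodes the nuclear receptor Nur77, had the largest ratio of marrow to fetal liver among the 10 genes. The marrow libraries held 868, 905 and 915 FPKM, those of FL-LSKCD201+ 45.7, 33.6 and 32.2 FPKM, and no other sorted library more than 14.5 FPKM. The differences were 6.06 against D5-LSKCD201+ (71.7-fold, SE 0.05, adjusted p = 7.4e-10) and 4.57 against FL-LSKCD201+ (24.1-fold, SE 0.14, adjusted p = 1.3e-06). FL-LSKCD201+ was also called higher than D5-LSKCD201+, by 1.48 (SE 0.14, adjusted p = 7.1e-05). D5-LSKCD201+ and D5-LSKCD201- overlapped, with a difference of 0.0029 (95% interval -0.27 to 0.28).

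Ier2, a small early response nuclear protein, was abundant in every group. It was at 1122, 1282 and 1276 FPKM in BM-LSKCD201+, at 312, 369 and 350.2 FPKM in FL-LSKCD201+, at 335, 330.3 and 323 FPKM in mESC, at 244, 220.5 and 261 FPKM in D5-LSKCD201- and at 240.4, 224 and 235 FPKM in D5-LSKCD201+. Fetal liver overlapped mESC and the D5 fractions overlapped each other. The marrow cells were higher than D5-LSKCD201+ by 2.39 (SE 0.07, adjusted p = 4.2e-08) and higher than FL-LSKCD201+ by 1.83 (SE 0.12, adjusted p = 2.8e-05).

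Atf3, a stress-induced ATF protein that dimerizes with Jun proteins, was the only member called lower in both tissues than in D5-LSKCD201+. D5-LSKCD201+ libraries held 44.0, 43.7 and 43.3 FPKM, while FL-LSKCD201+ libraries held 8.79, 8.83 and 8.73 FPKM, BM-LSKCD201+ libraries 5.54, 8.50 and 8.80 FPKM and D5-LSKCD201- libraries 6.69, 7.50 and 6.34 FPKM. BM-LSKCD201+ overlapped FL-LSKCD201+ and D5-LSKCD201-, which did not overlap each other, and mESC was lower at 0.488, 0.639 and 0.657 FPKM. Atf3 was lower than in D5-LSKCD201+ by 2.40 in marrow (log2 difference -2.40, SE 0.15, adjusted p = 3.0e-06) and by 2.19 in fetal liver (-2.19, SE 0.06, adjusted p = 2.4e-07). Between marrow and fetal liver the difference was -0.21 (95% interval -0.60 to 0.19, adjusted p = 0.33).

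Heat shock genes, which handling of cells can induce, were read beside these levels. The 7 heat shock genes summed to 1807 to 1839 FPKM in BM-LSKCD201+ and to 1832 to 1844 FPKM in D5-LSKCD201+, and to 2413 to 2763 FPKM in FL-LSKCD201+, and most of each sum was the constitutive Hspa8. In D5-LSKCD201- they summed to 3689 to 4601 FPKM and in mESC to 5218 to 5286 FPKM. Hsp90aa1 was a large part of these sums, at 1296 to 1644 FPKM in D5-LSKCD201- and 2242 to 2338 FPKM in mESC. Hspa1a was at 2.01 to 3.13 FPKM in D5-LSKCD201-, 2.39 to 2.83 FPKM in D5-LSKCD201+ and 3.80 to 5.03 FPKM in mESC. Hspa1b was at 4.45 to 5.69, 3.42 to 4.17 and 10.1 to 12.7 FPKM in the same order. Against D5-LSKCD201+, the inducible co-chaperone Dnajb1 was called higher in marrow, at 110.4 to 131 FPKM against 47.2 to 49.1 FPKM (log2 difference 1.34, adjusted p = 1.6e-06), and Hspb1 and Hsph1 were called lower (-2.76 and -1.37). In fetal liver, Hsp90aa1 was called higher (1.23) and Hspb1 lower (-2.22) than in D5-LSKCD201+. Hsp90aa1 and Hsph1 were called lower in marrow than in fetal liver (-1.45 and -1.62). The 5 macrophage markers summed to 389 to 420.1 FPKM in BM-LSKCD201+, 582 to 648 FPKM in FL-LSKCD201+ and 4.62 to 5.09 FPKM in D5-LSKCD201+, with 3 of the 4 tested called higher in marrow and 4 of 4 in fetal liver than in D5-LSKCD201+. Most of the sum in both tissues was Lyz2, a lysozyme of myeloid cells, at 360.1 to 387 FPKM in marrow and 539 to 613 FPKM in fetal liver, and Cd68 was at 25.9 to 30.6 FPKM in marrow and 1.95 to 2.36 FPKM in D5-LSKCD201+. Csf1r, the defining receptor of the lineage, was at 0.529 to 1.02 FPKM in BM-LSKCD201+ and 0.768 to 0.850 FPKM in D5-LSKCD201+ but at 8.83 to 10.4 FPKM in FL-LSKCD201+, and Adgre1 was likewise higher in fetal liver (5.12 to 7.07 FPKM) than in marrow (0.704 to 0.952 FPKM). The 4 mitochondrial transcripts summed to 11125 to 12067 FPKM in BM-LSKCD201+, 8154 to 11929 FPKM in FL-LSKCD201+ and 6044 to 6481 FPKM in D5-LSKCD201+, with mt-Atp6 and mt-Co1 called higher in marrow than in D5-LSKCD201+ and none lower. Between the tissues, mt-Nd1 was called lower in marrow than in fetal liver (-1.06). Of the 7 stromal markers tested against D5-LSKCD201+, 6 were called lower in marrow and 5 in fetal liver, and none higher. The 8 listed summed to at most 6.85 FPKM in BM-LSKCD201+ and 14.7 FPKM in FL-LSKCD201+. In D5-LSKCD201+ they summed to 90.2 to 94.3 FPKM. The times from tissue to lysis are not given in the sources used here, and the part of handling, RNA quality or other cells in these levels was not tested.

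**Figure D3:**
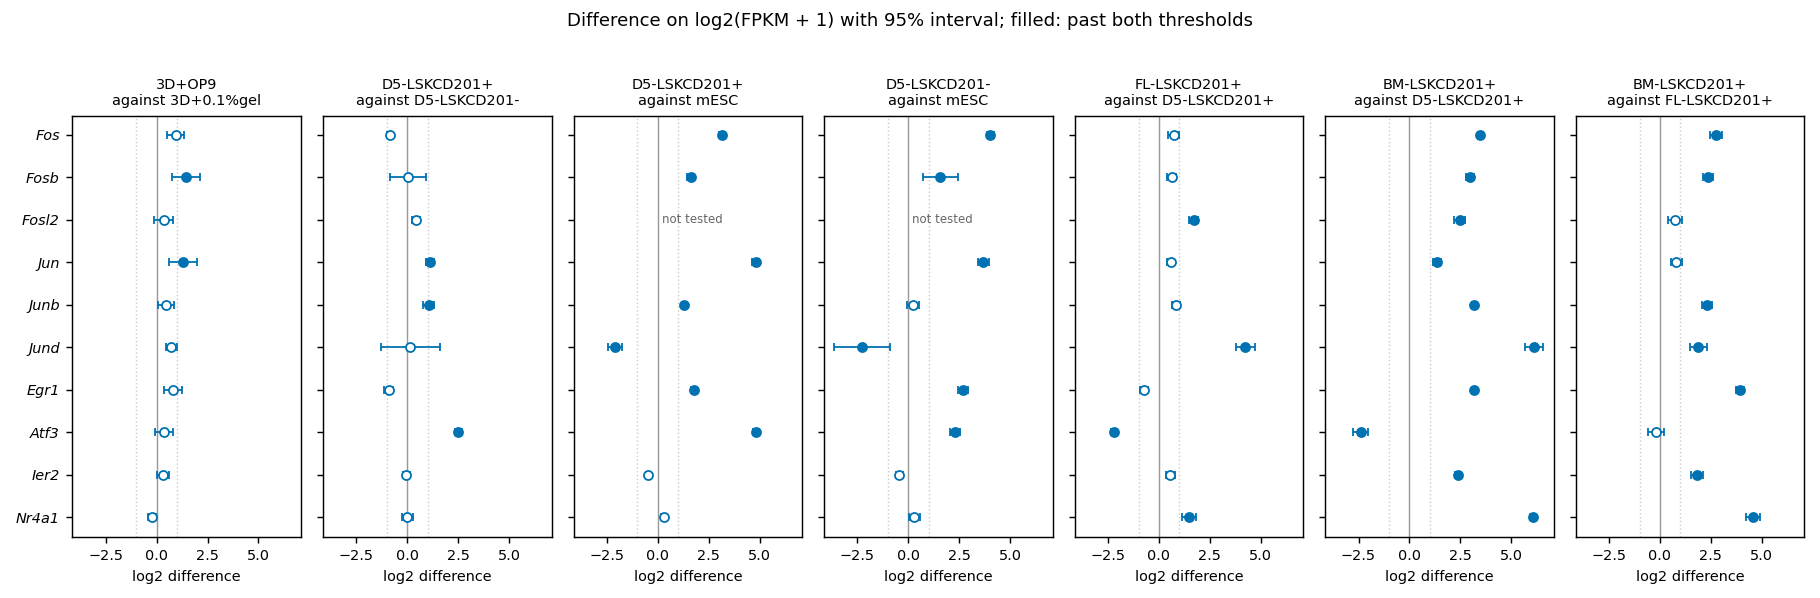
Log2 difference of each gene in the 7 comparisons, one panel per comparison, with 95% intervals from limma and filled points where both thresholds were passed. The points of BM-LSKCD201+ against D5-LSKCD201+ lie to the right of 1 for all genes but Atf3, which lies at -2.40.

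The question of what changed on the way from stem cells to the D5 fractions was addressed against mESC. Of the 9 genes tested, 6 were called higher in D5-LSKCD201+ and 1 lower (19.5% and 18.1% of 13441 genes), and in D5-LSKCD201- 5 were called higher and 1 lower (10.9% and 3.48% of 13596 genes). The largest differences in D5-LSKCD201+ were those of Atf3 at 4.81 (SE 0.07, adjusted p = 3.4e-11) and Jun at 4.80 (SE 0.08, adjusted p = 1.0e-10), followed by Fos at 3.16 (SE 0.06, adjusted p = 2.3e-10), Egr1 at 1.77, Fosb at 1.62 and Junb at 1.29. In D5-LSKCD201- they were those of Fos at 4.03 (SE 0.07, adjusted p = 1.6e-07), Jun at 3.68 (SE 0.12, adjusted p = 9.2e-07), Egr1 at 2.68, Atf3 at 2.30 and Fosb at 1.58. Jund was called lower in both, at -2.11 in D5-LSKCD201+ (SE 0.16, adjusted p = 1.4e-06) and -2.26 in D5-LSKCD201- (SE 0.58, adjusted p = 0.013), the latter becoming -1.51 without D5-LSKCD201- replicate 2 (adjusted p = 3.3e-05). Ier2 differed by -0.50 and -0.45 and Nr4a1 by 0.28 and 0.28, all below the fold threshold. Both comparisons use the same mESC libraries. The 8 stromal markers summed to 7.48 to 8.96 FPKM in mESC. For the CD201+ fraction the sum was 90.2 to 94.3 FPKM, and for the CD201- fraction 35.8 to 69.5 FPKM. Against mESC, 6 of the 7 stromal markers tested were called higher in each fraction and none lower. Of the 7 heat shock genes, 4 were called lower in the CD201+ fraction and 1 in the other, with none higher. Of the 4 pluripotent markers, 4 were called lower in the CD201+ fraction and 1 in the CD201- fraction, with none higher. Nanog was at 71.6 to 78.0 FPKM in D5-LSKCD201- and 71.0 to 75.7 FPKM in mESC. Of the 5 endothelial markers, 5 were called higher in the CD201+ fraction and 4 in the CD201- fraction, with none lower. Whether cell make-up or handling had a part in these changes was not tested.

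Between the D5 fractions, which the CD201 gate separates, 3 of the 10 genes were called higher in D5-LSKCD201+ and none lower, where 10.8% of the 13691 genes tested were called higher and 13.9% lower. Atf3 was higher by 2.51 (6.39-fold, SE 0.08, adjusted p = 3.0e-07), Jun by 1.12 (2.19-fold, SE 0.08, adjusted p = 1.9e-05) and Junb by 1.06 (2.08-fold, SE 0.11, adjusted p = 0.00013). Egr1 was -0.91 and Fos -0.87, in the opposite direction and just below the fold threshold. Without D5-LSKCD201- replicate 2 the count was also 3, but Junb stood at 0.92 and was no longer called and Egr1 at -1.01 was called lower. All 5 endothelial markers were called higher in D5-LSKCD201+ and all 4 pluripotent markers lower. Of the 8 stromal markers, 2 were called higher and 1 lower. Their sums were 90.2 to 94.3 FPKM in D5-LSKCD201+ and 35.8 to 69.5 FPKM in D5-LSKCD201-. The 7 heat shock genes summed to 1832 to 1844 FPKM in D5-LSKCD201+ and 3689 to 4601 FPKM in D5-LSKCD201-. Of these, Hspb1 and Hsp90aa1 were called lower in D5-LSKCD201+ (-5.38 and -2.13) and none higher. Hspa1a and Hspa1b differed by -0.06 and -0.39. The part of cell make-up or handling in the gene levels was not tested.

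The cocultures compared the total cells on OP9 with those on gelatin. The methods do not give the medium of the gelatin culture, so whether the cultures differed in stroma alone is not known. Fosb was at 124, 115 and 132 FPKM in 3D+OP9 and at 46.9, 26.9 and 70.7 FPKM in 3D+0.1%gel, a difference of 1.45 (2.57-fold, SE 0.30, adjusted p = 0.03). Jun was at 177, 176 and 86.4 FPKM in 3D+OP9 and at 73.4, 48.0 and 49.2 FPKM in 3D+0.1%gel, a difference of 1.31 (2.58-fold, SE 0.29, adjusted p = 0.042). These 2 genes were called higher and none lower, where 2.11% of the 12958 genes tested were called higher and 0.509% lower. For both genes the groups did not overlap, but replicate 3 of 3D+OP9 was less than 50% of the other replicates for Jun. Both calls were lost without 3D+OP9 replicate 1, without 3D+OP9 replicate 2 or without 3D+0.1%gel replicate 1, with adjusted p of 0.053 to 0.14, and that of Jun also without 3D+0.1%gel replicate 2 (0.17) or replicate 3 (0.13). Both were also lost with no filter on low values (adjusted p of 0.053 for Fosb and 0.07 for Jun) and with the closest pair of replicates averaged (0.088 and 0.13).

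Fos and Jund also separated the cocultures but stayed under the fold threshold. Fos was at 212, 200.8 and 166 FPKM in 3D+OP9 and at 116, 75.4 and 117 FPKM in 3D+0.1%gel (difference 0.93, SE 0.18, adjusted p = 0.024). It was called without 3D+OP9 replicate 3 (1.03, adjusted p = 0.012), without 3D+0.1%gel replicate 1 (1.03, adjusted p = 0.042) or without 3D+0.1%gel replicate 3 (1.03, adjusted p = 0.044), and its adjusted p rose to 0.09 without 3D+OP9 replicate 1 and to 0.089 without 3D+OP9 replicate 2. Jund was at 158, 159 and 123 FPKM against 91.5, 77.8 and 95.5 FPKM (0.73, SE 0.12, adjusted p = 0.015, and 0.0025 to 0.074 when each replicate was left out). Egr1 was at 187, 173 and 128 FPKM against 109, 71.7 and 100.4 FPKM, a difference of 0.79 with an adjusted p of 0.052. Junb, Fosl2, Atf3 and Ier2 overlapped between the cultures, with differences of 0.30 to 0.47. Nr4a1 was the only gene with lower values on OP9, at 67.3, 68.3 and 63.8 FPKM against 88.4, 74.6 and 75.3 FPKM (difference -0.25, adjusted p = 0.14). The median difference of the 10 genes was 0.60, against 0.01 over all genes tested. The 5 endothelial markers summed to 68.8 to 83.8 FPKM in 3D+OP9 and 8.84 to 18.8 FPKM in 3D+0.1%gel, the 4 hematopoietic markers to 9.31 to 11.5 FPKM and 0.43 to 0.84 FPKM, the 8 stromal markers to 58.2 to 69.4 FPKM and 25.7 to 37.0 FPKM and the 4 pluripotent markers to 477 to 718 FPKM and 828 to 908 FPKM. Of the pluripotent markers none was called lower on OP9, and Zfp42 was called higher, at 30.95 to 53.2 FPKM against 3.88 to 7.71 FPKM. The part of these cells, OP9 included, in the differences was not tested.

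**Figure D4:**
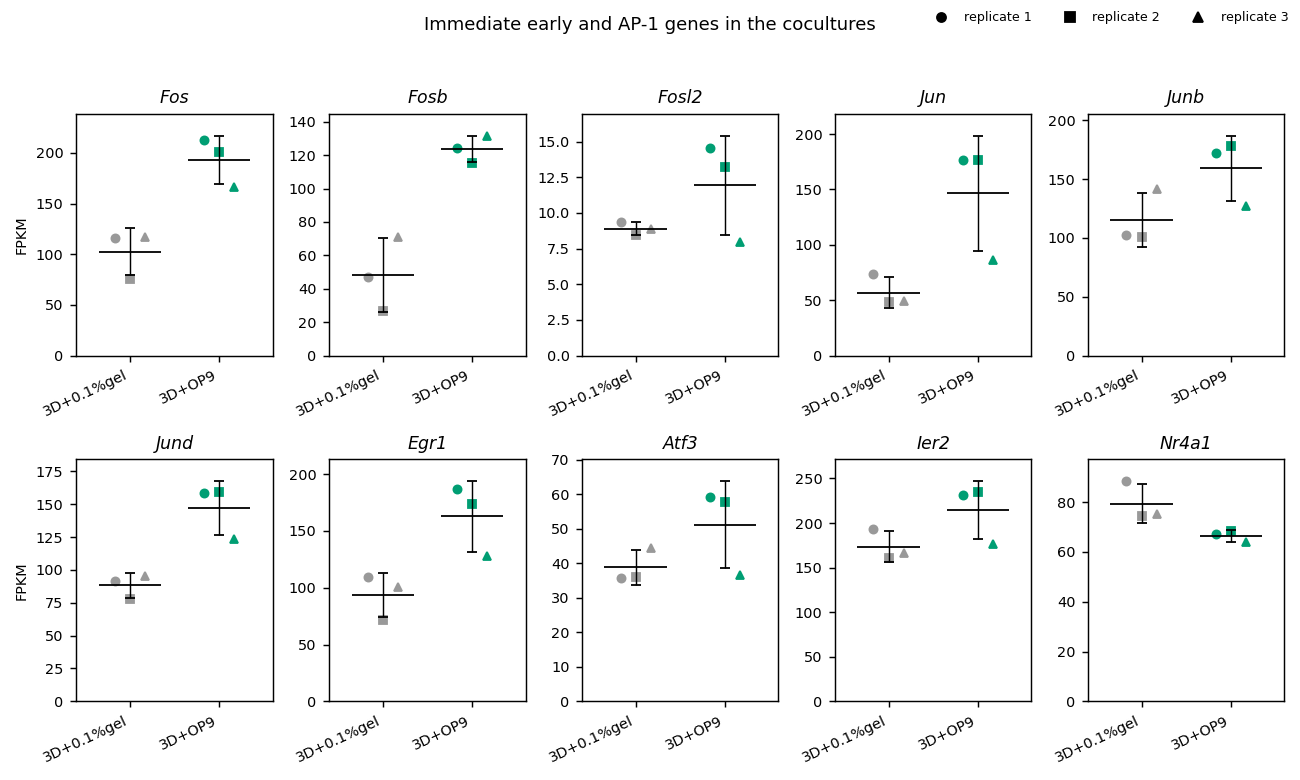
FPKM of the 10 genes in the total cells of both cocultures (linear axes from 0), with one symbol per replicate and the mean ± SD as a line and bar. Fosb and Jun lie higher in all 3D+OP9 libraries than in any 3D+0.1%gel library, and Nr4a1 lies lower.

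Another 56 genes of the early response were read in 4 sets (AP-1 partners, early transcription regulators, feedback and early effectors, and upstream kinases and serum response factors). Between BM-LSKCD201+ and D5-LSKCD201+, 27 of the 51 tested were called higher and 6 lower, where the shares over all genes tested were 27.2% and 17.5%, and the median difference was 1.33. Batf, an AP-1 partner of lymphoid and myeloid cells, was higher by 5.44 (SE 0.11, adjusted p = 1.2e-08), Zfp36, which destabilizes early response mRNAs, by 4.55 (SE 0.06, adjusted p = 2.5e-09) and Dusp5, a nuclear phosphatase of ERK, by 4.39 (SE 0.05, adjusted p = 1.7e-09). The kinases and serum response factors, which act before the early genes, had 2 called higher and 2 lower of 12, no more than the shares over all genes.

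Between the primary tissues, 24 of 53 were called higher in BM-LSKCD201+ and none lower (11.3% and 7.78% of all genes tested). They included 8 of 11 early transcription regulators, 11 of 20 feedback and early effectors, 5 of 10 AP-1 partners and 0 of 12 kinases and serum response factors. Socs3, the feedback inhibitor of cytokine receptors, was higher by 3.79 (SE 0.12, adjusted p = 1.4e-06), Jdp2, a repressive AP-1 partner, by 2.96 (SE 0.14, adjusted p = 7.4e-06) and Gadd45b, a stress effector, by 1.93 (SE 0.08, adjusted p = 4.7e-06). FL-LSKCD201+ against D5-LSKCD201+ gave 18 higher and 11 lower of 51 (19.6% and 15.1% of all genes tested), led by Batf at 4.95 (SE 0.15, adjusted p = 3.8e-07), Zfp36 at 3.30 and Dusp5 at 2.56.

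Against mESC, 22 of 48 were called higher and 6 lower in D5-LSKCD201+ (19.5% and 18.1% of all genes tested), and 12 of 49 higher and 3 lower in D5-LSKCD201- (10.9% and 3.48%). Dusp2, a phosphatase of ERK, was higher by 5.67 in D5-LSKCD201+ (SE 0.06, adjusted p = 9.7e-12) and by 2.01 in D5-LSKCD201-. Elk3, an ETS partner of serum response factor that is known in endothelium, was higher by 5.61 and Gadd45g by 2.91 in D5-LSKCD201+, while in D5-LSKCD201- Ier5 was higher by 2.48 and Socs3 lower (log2 difference -2.88, SE 0.32, adjusted p = 0.00024). Between the D5 fractions 9 of 50 were called higher in D5-LSKCD201+ and 4 lower (10.8% and 13.9% of all genes tested), with Elk3 at 3.92 (SE 0.12, adjusted p = 3.1e-07), Dusp2 at 3.66 and Batf3 at 2.45. In the cocultures 3 of 54 were called higher on OP9 and none lower (2.11% and 0.509% of all genes tested). These were Klf2, a flow-responsive factor, at 2.02 (SE 0.19, adjusted p = 0.0022), Gadd45g at 1.53 and Elk3 at 1.35. The coculture count of 3 became 6 without 3D+OP9 replicate 3 and 10 with adjusted p alone.

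The genes whose profile over the 15 sorted-cell libraries was nearest to that of Fos were mostly not its own family. By the root mean square difference of centred log2(FPKM + 1) values among 14456 genes, the nearest were Pik3ip1 (0.50), Ly6a (0.65), Glipr1 (0.67), Ifi27 (0.67) and Dap (0.74). Ly6a encodes Sca-1, on which the LSK groups but not mESC were gated. Among the 10 genes, Fosb (0.89, rank 14), Egr1 (0.92, rank 17) and Jun (0.93, rank 18) were nearest to Fos, Junb stood at rank 142 and Jund farthest, at 2.36 and rank 10006. This is a description of 5 groups of 3 libraries, and the libraries of a group share their source.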

How the data were processed

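The authors extracted RNA with TRIzol, made VAHTS mRNA-seq libraries, sequenced paired ends, aligned to GRCm38 with HISAT2 2.0.5, and deposited FPKM per gene from StringTie 1.3.3 (Cuffdiff 1.3.0 was their test; mm9 is also named in the submitters' processing notes). The cocultures and the sorted cells are separate tables, normalized separately, so every test stayed within a table. Counts were not used, so log2(FPKM + 1) was tested with limma 3.58.1 (trend, two-sided) in R 4.3.3, each pair of groups alone, over genes that averaged 0.5 FPKM or more, with Benjamini-Hochberg adjustment and the thresholds stated above. The study describes the sorted-cell replicates as biological. All p-values measure only the spread between these samples. For the cocultures, and for the sorted groups with close replicates, that spread may be technical. The script was tested on simulated data. With 3 against 3 libraries an exact permutation test cannot go below p = 0.1, so none is given. The members, the gene lists and the tests were chosen with earlier results of these data known. The 10 members were tested in every comparison in which they passed the filter, but the text does not give every difference. From the other early response list, the 3 called genes with the largest differences in each comparison were named. The 5 genes nearest to Fos were named as well. GC content and positions are from GENCODE M21, which held 99.5% of the sorted-cell and 92.0% of the coculture genes, and promoters are from RefSeq. Depth was estimated from FPKM steps of 10187 genes with 1 transcript. Same-numbered replicates deviated together (correlations of 0.24, 0.20 and 0.16) in all 3 pairs only between BM-LSKCD201+ and FL-LSKCD201+, a pairing read from the data and not from the labels. Alternatives were the pseudocount, the filter, quantile normalization, a replicate block, adjusted p alone, 1 fit over the 5 sorted groups, leaving out each replicate and, chosen after seeing the data, averaging the closest pair of replicates and a GC adjustment. Scripts used Python 3.11.15, pandas 2.3.3 and matplotlib 3.10.9.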

Additional observations from a re-analysis of the deposited data

How the results depend on the processing

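Of 1068 recomputed values of the 10 genes, 1024 kept their direction and their side of the thresholds. The count of genes called moved by more than 1.5 times in 3 comparisons. For 3D+OP9 against 3D+0.1%gel it was 2, and became 0 with no filter on low values, 0 with the closest pair of replicates averaged and 4 with adjusted p alone, and it ran from 0 to 3 when each replicate was left out. With adjusted p alone it went from 3 to 6 for D5-LSKCD201+ against D5-LSKCD201- and from 4 to 10 for FL-LSKCD201+ against D5-LSKCD201+, and by less elsewhere (from 7 to 9 for BM-LSKCD201+ against FL-LSKCD201+ and for D5-LSKCD201+ against mESC, and from 6 to 7 for D5-LSKCD201- against mESC). The replicate block left the count at 2, 3, 7, 6, 4, 10 and 7 genes in the 7 comparisons and changed no call of the 10 genes.

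Signs reversed only between the D5 fractions. Ier2 became 0.035 with quantile normalization, and Nr4a1 became -0.061 with the GC adjustment, alone or with the replicate block. When each replicate was left out, Fosb ran from -0.44 to 0.29, Jund from -0.60 to 0.66, Nr4a1 from -0.10 to 0.10 and Ier2 from -0.11 to 0.0071. Quantile normalization shifted the median of all genes from 0.23 to 0.02 for BM-LSKCD201+ against D5-LSKCD201+, the largest shift, and changed the calls of all genes for D5-LSKCD201- against mESC from 1476 higher and 473 lower to 1104 higher and 741 lower. Those for D5-LSKCD201+ against D5-LSKCD201- went from 1475 higher and 1904 lower to 1716 and 1599, and those for BM-LSKCD201+ against D5-LSKCD201+ from 3753 and 2406 to 3007 and 2890. For FL-LSKCD201+ against D5-LSKCD201+ they went from 2673 and 2054 to 2296 and 2314. For D5-LSKCD201+ against mESC they went from 2626 and 2430 to 2499 and 2611. With a pseudocount of 0.1, D5-LSKCD201- against mESC had 2125 higher and 790 lower. For the cocultures, the 273 higher and 66 lower of all genes became 413 and 118 with a pseudocount of 0.1, 317 and 127 without 3D+OP9 replicate 3, 208 and 43 without 3D+OP9 replicate 2, and 172 and 37 without 3D+0.1%gel replicate 2. The causes were not tested. Depth limits Fosl2 and Fosb in mESC, where values were under 0.2 FPKM.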
